A study of Mus musculus with 2 samples.

Results

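The 5 genes described here are Trp53, Trp63 and Trp73, which encode the mouse transcription factors p53, p63 and p73, and Mdm2 and Mdm4, which encode the main inhibitors of p53. They were taken by name from the 32286 features of each count matrix, and all 5 were present in both libraries. The study profiled sorted epidermal cells of mouse skin by single-cell RNA-seq, with 2 libraries, 1 per genotype. The Survivin GOF library came from mice that carried Involucrin-CreER, Rosa-SmoM2 fused to YFP, Krt14-rtTA and a Survivin gain-of-function allele marked with mCherry. The control library came from mice with Involucrin-CreER and Rosa-SmoM2 fused to YFP alone. Both groups therefore expressed SmoM2, a constantly active form of the hedgehog pathway protein Smoothened, in cells in which the involucrin promoter had driven CreER, and no library without SmoM2 was part of the comparison. In the GOF mice the rtTA was driven by the keratin 14 promoter of basal keratinocytes. The sort kept YFP+ cells with high integrin α6 and without CD34, and 10000 cells were loaded per 10x Chromium channel. The labels do not say how many mice went into either library.

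The p53 protein halts the cell cycle or triggers cell death after DNA damage and other stress, largely by switching on target genes such as Cdkn1a, which encodes the cyclin-dependent kinase inhibitor p21. Mdm2 is a ubiquitin ligase that marks p53 for degradation and is itself a p53 target, and Mdm4 binds p53 and blocks its activity without being an efficient ligase on its own. The p63 protein maintains basal keratinocytes and is needed for stratified epidermis to form, while p73 shares the DNA-binding domain of the family and is best known for roles in ciliated cells and neurons. Much of the control of p53 acts on the protein, which mRNA counts do not measure.

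Values are given as counts of unique molecular identifiers (UMIs) summed over the cells of a population and scaled by the total UMIs of that population to CPM, the usual depth-scaled unit, with 95% intervals. With 1 library per genotype no difference was tested, and every interval covers counting error only, not the spread between mice. An interval of a ratio that excludes 1 therefore compares these 2 libraries and not the genotypes. Cells with at least 1500 genes and at most 10% mitochondrial UMIs were kept, and after removal of likely doublets 6494 GOF cells with a median of 12324.5 UMIs and 10294 control cells with a median of 7648 UMIs remained. Birc5, the gene of Survivin, stood at 793 CPM in GOF and 55.1 CPM in control keratinocytes. Between the libraries 84 barcodes were shared, 22 of them among cells that passed the filter.

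Cells fell into 27 clusters, made without the 5 genes, and 18 keratinocyte clusters held at least 50 cells of each library. The basal class (1538 GOF and 1500 control cells) had Krt14 at 31412 and 29665 CPM and came from clusters 1, 2 and 4. Cluster 1 held 57.2% of the GOF basal cells and 0.533% of the control ones, and cluster 4 held 1.69% and 79.0%, so cluster 2 alone was well filled by both libraries. The suprabasal class (cluster 6, 353 and 578 cells) had Krt10 at 30498 and 35045 CPM. The hedgehog-high class (clusters 11, 12 and 16, 938 and 1424 cells) had Ptch1, a direct hedgehog target, at 651 and 631 CPM. The sebaceous class (cluster 21, 100 and 255 cells) had the lipid desaturase gene Scd1 at 7285 and 6033 CPM. Cycling hedgehog-high cells were kept apart as cluster 15, and cluster 25 held 1722 control cells against 2 GOF cells. Cells with Xist UMIs and none of 4 Y-linked genes were called female, and cells with Y-linked UMIs and no Xist male. The GOF keratinocytes comprised 3608 female-called and 1805 male-called cells, against 30 and 7353 in the control library.

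Transcripts of other classes were more abundant in the control library within most classes. In basal cells Krt10 stood at 597 CPM in GOF and 1114 CPM in control, and Scd1 at 55.0 and 133 CPM. In suprabasal cells Ptch1 stood at 19.95 CPM in GOF and 52.9 CPM in control, and YFP at 0.658 and 6.69 CPM. Although YFP+ cells were sorted, YFP RNA was uneven and, among the 4 classes, highest in hedgehog-high cells, at 30.2 CPM in GOF and 30.6 CPM in control. It stood at 1.11 and 2.99 CPM in basal cells and at 1.02 and 0.893 CPM in sebaceous cells. Whether the cells of these other classes expressed SmoM2 was not tested. Cluster 7, outside the classes, held 96 GOF and 406 control cells. Its YFP stood at 36.2 CPM in GOF and 40.9 CPM in control, and its Ptch1 at 476 and 431 CPM. Melanocyte-like and immune-like cells also carried keratin RNA, with Krt14 at 20045 and 12588 CPM in GOF and 17892 and 10154 CPM in control.

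The chromosomal positions of the 5 genes are those of GENCODE vM21 on mm10. Trp53 lies on the plus strand at chr11:69580359-69591873 and Trp63 on the plus strand at chr16:25683763-25892102. The gene model Gm27005 overlaps Trp63 on the same strand and Gm24928 on the other. Trp73 lies on the minus strand at chr4:154056253-154140208, where Trp73os and Gm26036 overlap it on the other strand. Mdm2 lies on the minus strand at chr10:117688875-117710758, and Mdm4 on the minus strand at chr1:132959484-133030561 with the gene model Gm29257 on the other strand. The stretches just before the starts of Trp53 and Mdm2 are shown because each holds 1 match to the p53 decamer, the repeated unit of p53 binding sites. A single match is not a repeat of the unit, and binding of p53 was not tested. For Mdm2 only the start at chr10:117710758 was searched, and not its p53-responsive start, which is named below. The sequences are RefSeq's on GRCm38.p6, run 5′ to 3′ on the gene's strand and exclude annotated exons. Capitals mark the matches to the p53 decamer and to the GC box (GGGCGG on either strand).
Trp53, chr11:69580256-69580358, plus strand: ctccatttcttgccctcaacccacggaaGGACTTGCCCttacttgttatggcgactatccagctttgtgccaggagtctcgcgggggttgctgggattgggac
Mdm2, chr10:117710759-117711008, minus strand: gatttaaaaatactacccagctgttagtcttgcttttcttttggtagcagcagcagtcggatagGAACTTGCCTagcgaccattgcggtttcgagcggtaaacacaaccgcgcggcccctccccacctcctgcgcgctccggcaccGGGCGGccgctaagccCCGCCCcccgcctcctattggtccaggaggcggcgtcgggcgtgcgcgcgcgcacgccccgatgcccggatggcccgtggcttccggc
The decamer reads the same on both strands as a consensus, and 8.36% of 32851 mouse promoters in the table (300 bases each, of which 250 precede the start) held at least 1 match. The GC box was held by 35.7% of them, and by 2 matches in Mdm2 and none in Trp53. The GLI site GACCACCCA, searched on both strands, was held by 0.253% of promoters and by none of the 6 listed for Trp53, Trp73, Mdm2 and Mdm4. Both Mdm4 starts and both Trp73 starts had no decamer match in this window.

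Trp53 mRNA differed more between cell classes than between the libraries. It was highest in hedgehog-high cells, with 179 CPM in the GOF library (95% interval 173 to 186) and 161 CPM in the control library (155 to 168). Basal cells had 100.1 CPM in GOF and 93.8 CPM in control. Suprabasal cells had 49.99 CPM in GOF and 45.8 CPM in control, and sebaceous cells 31.7 and 23.4 CPM. The order hedgehog-high, basal, suprabasal, sebaceous was the same in both libraries, with no overlap between the intervals of neighbouring classes within a library. In the GOF library hedgehog-high cells had 1.79-fold the basal level (1.69 to 1.90) and suprabasal cells 0.4996-fold (0.434 to 0.573). In the control library the same ratios were 1.72 (1.60 to 1.86) and 0.488 (0.421 to 0.564). Cluster 7, outside the classes but also with high Ptch1 and YFP, had 96.5 CPM in GOF and 92.5 CPM in control, near the basal level.

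Between the libraries Trp53 differed little. Over all keratinocytes it stood at 109 CPM in GOF and 100.4 CPM in control, a ratio of 1.09 (1.06 to 1.12). No member passed 1.5-fold in either direction in that comparison, in which 6.79% of 14559 genes with at least 50 pooled UMIs were higher and 5.41% lower by 1.5-fold or more. The ratio for Trp53 was 1.07 in basal cells (0.988 to 1.15) but 0.984 in cluster 2 alone (0.848 to 1.15), with both intervals including 1. It was 1.09 in suprabasal cells (0.904 to 1.32), 1.11 in hedgehog-high cells (1.05 to 1.18) and 1.35 in sebaceous cells (1.01 to 1.81). Among male-called cells the ratio was 1.23 in the hedgehog-high class (1.13 to 1.33). It was 1.05 in basal (0.935 to 1.18), 0.886 in suprabasal (0.625 to 1.23) and 1.30 in sebaceous cells (0.908 to 1.83). The median log2 ratio of all genes was 0.08 over all keratinocytes, and the log2 ratio of Trp53 was 0.12, or 0.04 under median-of-ratios scaling. Over the 18 clusters filled by both libraries Trp53 was higher in GOF in 16, with an interval above 1 in 3 of them. Its median log2 ratio over these clusters was 0.08, like the median of all genes over all keratinocytes. In male-called cells 14 clusters held at least 50 such cells in each library. Trp53 was higher in GOF in 9 of them and lower in 5, with an interval above 1 in 2. How many of all genes were as one-sided over the clusters was not counted, for Trp53 or for the genes below. Cluster 16, which had the highest level in both libraries, stood at 197 CPM in GOF and 188 CPM in control. Keratinocytes with a UMI of any of 12 core mitotic genes had 1.23-fold the Trp53 level of those without in GOF (1.18 to 1.28) and 1.27-fold in control (1.21 to 1.34). Cells with such a UMI numbered 3583 in GOF and 7539 in control, against 2736 and 2585 without. Their median was 14662 UMIs in GOF and 8097 in control, against 9980.5 and 6767 without. The split thus also went with depth and is not a call of cycling cells. Within hedgehog-high cells the same ratio was 1.05 in GOF (0.963 to 1.14) and 1.05 in control (0.944 to 1.16), so there the intervals included 1.

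**Figure D1:**
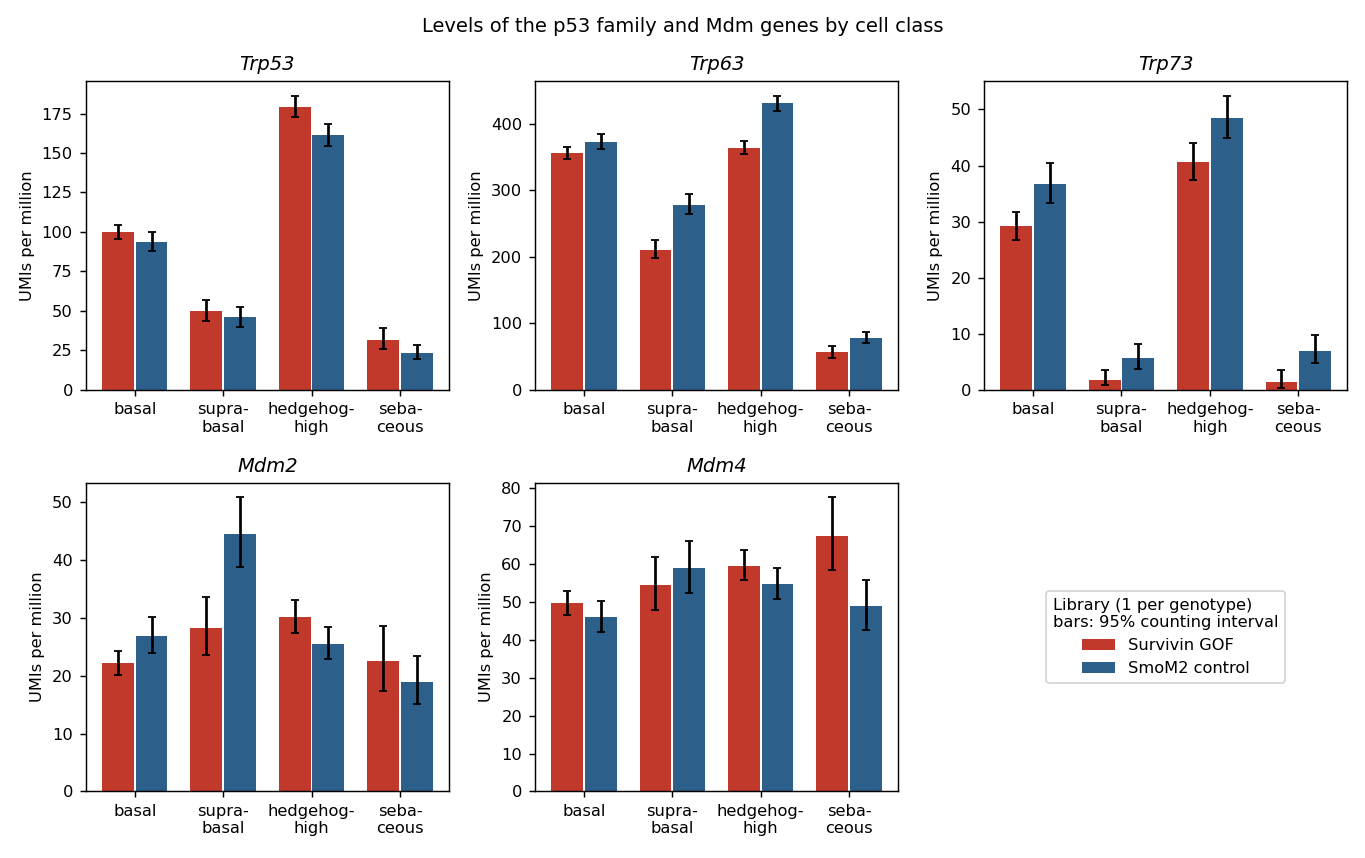
CPM of each of the 5 genes (vertical axes, starting at 0) in the basal, suprabasal, hedgehog-high and sebaceous classes, with the Survivin GOF library left of the SmoM2 control library and bars for 95% counting intervals. Trp53 is highest in hedgehog-high cells in both libraries (179 and 161), and Trp73 is near 0 in suprabasal and sebaceous cells.

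Trp63 mRNA was high in basal and hedgehog-high cells and lower in differentiated cells. Basal cells had 356 CPM in GOF (347 to 364) and 372 CPM in control (361 to 384). Hedgehog-high cells had 364 CPM in GOF (354 to 374) and 431 CPM in control (419 to 442). Suprabasal cells had 211 CPM in GOF (198 to 224) and 278 CPM in control (264 to 293), and sebaceous cells 55.9 and 77.7 CPM. In GOF the basal and hedgehog-high intervals overlapped, and the ratio between the classes was 1.02 (0.987 to 1.06). In control hedgehog-high cells had 1.16-fold the basal level (1.11 to 1.204), a direction that turned under median-of-ratios scaling, since the median gene was higher in hedgehog-high than in basal cells by 0.32 on the log2 scale. Suprabasal cells had 0.592-fold the basal level in GOF (0.553 to 0.634) and 0.747-fold in control (0.703 to 0.795).

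Trp63 was lower in the GOF library in basal, suprabasal and hedgehog-high cells, with intervals that excluded 1. The ratio was 0.955 in basal cells (0.918 to 0.993), 0.757 in suprabasal cells (0.696 to 0.823) and 0.846 in hedgehog-high cells (0.814 to 0.878). It was 0.720 in sebaceous cells (0.595 to 0.870), whose share of cells with Trp63 lay below that of melanocyte-like cells, as given below. Over all keratinocytes, 298 CPM in GOF stood against 317 CPM in control, a ratio of 0.941 (0.926 to 0.956). Without the control-only clusters this ratio was further below 1, as given in the closing section. Within cluster 2, the basal cluster that both libraries filled, Trp63 stood at 348 CPM in GOF and 394 CPM in control, a ratio of 0.882 (0.816 to 0.954). It was lower in 16 of the 18 clusters, with an interval below 1 in 13 of them. In male-called cells it was lower in 13 of the 14 clusters with at least 50 such cells in each library, with an interval below 1 in 10. The male-called ratio was 0.848 over all keratinocytes (0.826 to 0.870) and 0.595 in suprabasal cells (0.506 to 0.696). Within the GOF library, female-called cells had 313 CPM and male-called cells 269 CPM.

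The hedgehog-high clusters differed from each other in Trp63. Cluster 12 had the highest level among clusters with at least 50 cells of the library, in both libraries, with 425 CPM in GOF and 573 CPM in control, and the ratio between the libraries there was 0.741 (0.693 to 0.791). Cluster 16 had 364 and 359 CPM, a ratio of 1.02 (0.959 to 1.07), and cluster 11 had 309 and 321 CPM, a ratio of 0.961 (0.875 to 1.06). Cluster 12 made up 24.3% of the hedgehog-high cells in GOF and 43.8% in control, and with equal weight for the 3 clusters the log2 ratio of the class was -0.16, against -0.24 by sum. Cycling cluster 15 had 339 CPM in GOF and 398 CPM in control.

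After each cell had been thinned to 3000 UMIs, 56.0% of 6309 GOF keratinocytes and 59.5% of 10033 control keratinocytes held a Trp63 UMI, with 10 and 91 shallower cells left out. Without thinning the shares were 92.2% and 86.4%, the opposite order, with GOF cells at a median of 12313 UMIs and control cells at 7627. The thinned share was 61.6% in GOF and 65.8% in control basal cells, 62.8% and 67.8% in hedgehog-high cells, and 44.8% and 55.4% in suprabasal cells. Melanocyte-like cells, which should lack the gene, had 32.0% in GOF and 46.4% in control, at a median of 11795 and 9382.5 UMIs, and immune-like cells 42.0% and 25.9%. Sebaceous cells had 14.0% in GOF and 22.4% in control, at a median of 26089 and 17270 UMIs, below the melanocyte-like cells. Melanocyte-like cells also held more keratin RNA, with Krt14 at 20045 and 17892 CPM against 3340 and 3634 CPM in sebaceous cells. How much of the sebaceous Trp63 came from other cells was not tested, and its ratio between the libraries is not read as a difference. Per 1000 Krt14 UMIs, suprabasal cells held 64.9 Trp63 UMIs in GOF and 75.4 in control. Melanocyte-like cells held 12.6 and 14.9, immune-like cells 26.5 and 20.5, sebaceous cells 16.8 and 21.4, and basal cells 11.3 and 12.6.

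Among the 4 classes, Trp73 mRNA was higher in hedgehog-high and basal cells than in suprabasal and sebaceous cells. Hedgehog-high cells had 40.7 CPM in GOF (37.5 to 44.1) and 48.5 CPM in control (44.8 to 52.4). Basal cells had 29.1 CPM in GOF (26.7 to 31.7) and 36.7 CPM in control (33.2 to 40.5). Hedgehog-high cells thus had 1.40-fold the basal level in GOF (1.24 to 1.57) and 1.32-fold in control (1.16 to 1.5). The median gene was also higher there, by 0.28 in GOF and 0.32 in control on the log2 scale. On that scale the Trp73 interval lay above the median gene in GOF (0.31 to 0.65) and included it in control (0.22 to 0.58). Suprabasal cells had 8 UMIs in GOF (1.75 CPM) and 28 in control (5.67 CPM), and sebaceous cells 4 UMIs (1.36 CPM) and 31 UMIs (6.92 CPM). In the thinned cells a Trp73 UMI was held by 8.79% of GOF and 10.7% of control basal cells and by 10.9% and 13.5% of hedgehog-high cells. The share was 0.850% in GOF and 0.874% in control suprabasal cells. In sebaceous cells it was 0 of 100 in GOF (upper limit 3.62%), where 4 of 100 held a Trp73 UMI before thinning, and 2.36% in control. Melanocyte-like cells had 2.40% and 5.36%, so the suprabasal and sebaceous shares were not above this background. Unthinned, the shares were 2.27% in GOF and 4.50% in control suprabasal cells and 21.6% and 23.2% in melanocyte-like cells. The Ptch1 and YFP counts of suprabasal cells, given above, were higher in control in the same way, and their part in the Trp73 values was not tested.

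In the classes in which it was detected above background, Trp73 was lower in the GOF library. The ratio was 0.793 in basal cells (0.696 to 0.904), 0.700 in cluster 2 alone (0.532 to 0.929) and 0.838 in hedgehog-high cells (0.748 to 0.938). Over all keratinocytes it was 21.96 CPM in GOF against 26.6 CPM in control, a ratio of 0.825 (0.779 to 0.874). Trp73 was lower in 15 of the 18 clusters, with an interval below 1 in 9, among them clusters 6 and 21, the suprabasal and sebaceous ones. In clusters 3, 6, 10, 20 and 21 of these, the thinned share of cells with Trp73 was below that of melanocyte-like cells in each library. In clusters 2, 9, 12 and 15 it was above. In male-called keratinocytes the ratio was 0.699 (0.635 to 0.770), and Trp73 was lower in 13 of 14 clusters, with an interval below 1 in 5. These were clusters 0, 9, 10, 15 and 21, of which 0, 10 and 21 had shares over all cells below the melanocyte-like ones. Within the GOF library, female-called cells had 24.2 CPM and male-called cells 18.4 CPM. Among keratinocytes without a core mitotic UMI the levels were 21.3 CPM in GOF and 22.5 CPM in control, and the interval of the ratio (0.842 to 1.07) included 1. Cluster 12 was again highest among clusters with at least 50 cells of the library, at 43.4 CPM in GOF and 56.6 CPM in control. Clusters outside the 4 classes also held Trp73, with 26.8 CPM in GOF and 27.8 CPM in control in cluster 13, and 26.9 CPM in control-only cluster 25. Cluster 7, with high Ptch1 and YFP, had 8.04 CPM in GOF and 13.2 CPM in control, below the basal class. Cycling cluster 15 had 29.2 CPM in GOF and 39.6 CPM in control, below the hedgehog-high class of the same library by 0.719-fold (0.607 to 0.850) and 0.815-fold (0.707 to 0.939).

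**Figure D2:**
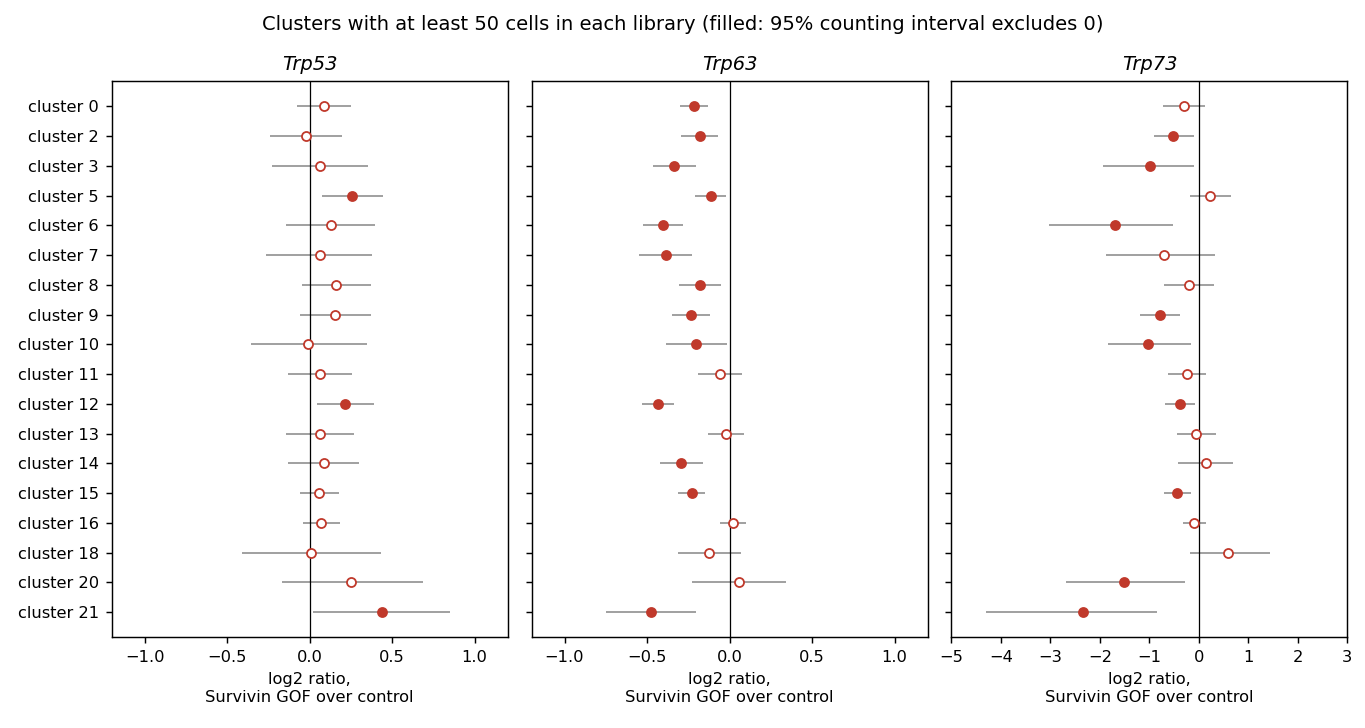
Log2 ratio of CPM, Survivin GOF over control (horizontal axes, wider for Trp73), of Trp53, Trp63 and Trp73 in the 18 keratinocyte clusters with at least 50 cells in each library, with 95% counting intervals as lines and filled points where the interval excludes 0. Most Trp63 points (16 of 18) and Trp73 points (15 of 18) lie left of 0 and most Trp53 points (16 of 18) right of it. In clusters 0, 3, 6, 10, 20 and 21 the share of cells with Trp73 was below that of melanocyte-like cells. The median of all genes over all keratinocytes was 0.08.

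The difference in Mdm2 between the libraries changed side with the class, with intervals that excluded 1 on both sides. Suprabasal cells had 28.3 CPM in GOF (23.6 to 33.6, 129 UMIs) and 44.6 CPM in control (38.9 to 50.9, 220 UMIs), a ratio of 0.635 (0.507 to 0.792). It was the single member of 4 with at least 50 pooled UMIs past 1.5-fold there, where 6.16% of 8999 genes were lower and 3.09% higher by 1.5-fold or more. In basal cells no member passed 1.5-fold (6.81% of 11120 genes higher and 4.04% lower), nor in hedgehog-high cells (5.28% of 11891 genes higher and 5.21% lower), nor among the 4 measured in sebaceous cells (11% of 7943 genes higher and 2.95% lower). Basal cells had 22.1 CPM in GOF and 26.9 CPM in control, a ratio of 0.822 (0.707 to 0.957), which in cluster 2 alone was 0.870 with an interval that included 1 (0.640 to 1.196). Hedgehog-high cells had 30.2 CPM in GOF and 25.6 CPM in control, a ratio of 1.18 (1.02 to 1.36). On the log2 scale the lower limit was 0.03, below the median of all genes there (0.08). Sebaceous cells had 22.5 and 19.0 CPM, a ratio of 1.19 (0.847 to 1.66). Over all keratinocytes 26.2 CPM in GOF stood against 26.4 CPM in control (ratio 0.992, 0.939 to 1.05). Without the control-only clusters this ratio was further below 1, as given in the closing section. Over clusters the count was even, with Mdm2 higher in 9 and lower in 9, an interval above 1 in cluster 16 and an interval below 1 in cluster 6, and the male-called ratios were 1.41 in hedgehog-high (1.15 to 1.72) and 0.529 in suprabasal cells (0.336 to 0.800).

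Within a library, Mdm2 was higher in suprabasal than in basal cells, by 1.28-fold in GOF (1.04 to 1.56) and 1.65-fold in control (1.38 to 1.98). Hedgehog-high cells had 1.36-fold the basal level in GOF (1.19 to 1.56), while the control ratio of 0.949 had an interval that included 1 (0.809 to 1.11). On the log2 scale the GOF interval (0.25 to 0.64) included the value of the median gene (0.28). Sebaceous cells had 0.704-fold the basal level in control (0.547 to 0.899) and 1.02-fold in GOF (0.772 to 1.32). By thinned cells, 8.22% of GOF and 13.8% of control suprabasal cells held an Mdm2 UMI. The deposited counts are 3′ ends and do not separate transcripts from the constitutive and the p53-responsive start of Mdm2.

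Mdm4 varied little among the classes. Basal cells had 49.7 CPM in GOF and 46.1 CPM in control, suprabasal cells 54.6 and 59.0 CPM, and hedgehog-high cells 59.6 and 54.8 CPM. Sebaceous cells had 67.5 CPM in GOF (58.5 to 77.6) and 48.9 CPM in control (42.6 to 55.8). Hedgehog-high cells had 1.199-fold the basal level in GOF (1.09 to 1.32) and 1.19-fold in control (1.06 to 1.34), ratios that were below 1 in both libraries under median-of-ratios scaling. Between the libraries Mdm4 stood at 56.0 CPM in GOF and 49.5 CPM in control over all keratinocytes, a ratio of 1.13 (1.09 to 1.18). The ratio was 1.08 in basal cells (0.968 to 1.205) but 0.895 in cluster 2 alone (0.723 to 1.11), 0.926 in suprabasal cells and 1.09 in hedgehog-high cells, all with intervals that included 1, and in sebaceous cells the ratio was 1.38 (1.13 to 1.68). Control-only cluster 25 had an Mdm4 level of 34.3 CPM, and without the control-only clusters the log2 ratio over all keratinocytes was 0.05, against 0.18 with them. In keratinocytes without a core mitotic UMI Mdm4 stood at 53.5 CPM in GOF and 54.5 CPM in control, on the other side of 1. It was higher in 9 clusters and lower in 9.

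**Figure D3:**
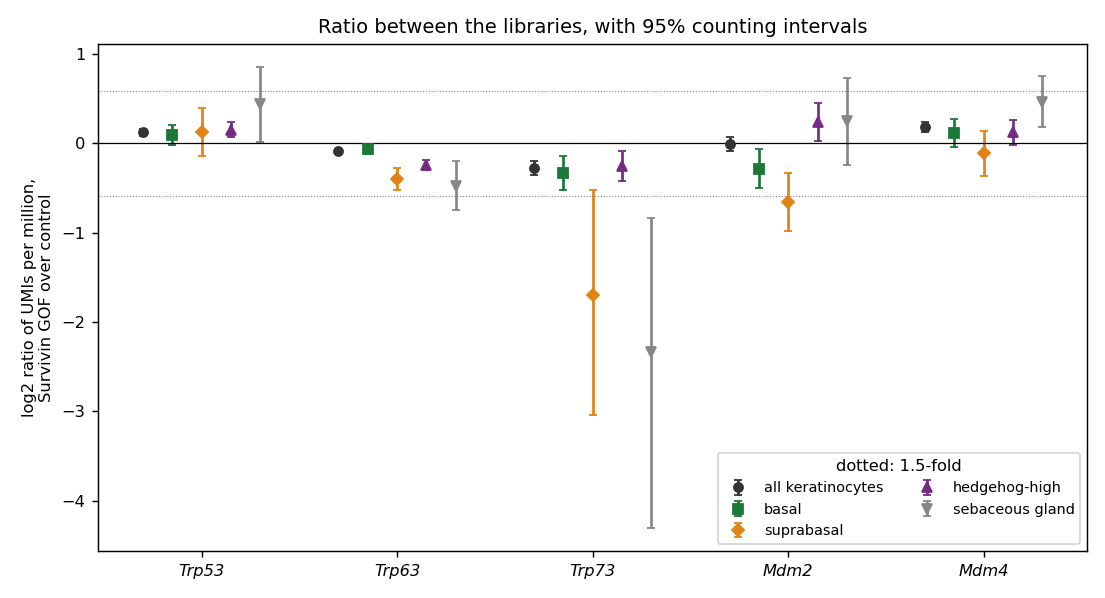
Log2 ratio of CPM, Survivin GOF over control (vertical axis), of the 5 genes (horizontal axis) over all keratinocytes and in each class, with 95% counting intervals and dotted lines at 1.5-fold. Trp63 and Trp73 lie below 0 in every class, and Mdm2 lies below 0 in basal and suprabasal cells and above 0 in hedgehog-high cells (0.24). Trp73 was not above background in suprabasal and sebaceous cells, and the sebaceous Trp63 ratio is not read as a difference.

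In suprabasal over basal cells 3 of 5 were lower by 1.5-fold or more in GOF and none higher, where 25.7% of 10831 genes were lower and 11.4% higher. In control 2 of 5 were lower (18.4% of 10292 genes) and 1, Mdm2, was higher (15.9%). In hedgehog-high over basal cells Trp53 alone was higher by 1.5-fold or more, where 28.4% of 11893 genes were higher and 9.59% lower in GOF, and 29.1% of 11436 genes higher and 7.51% lower in control. In sebaceous over basal cells Trp53, Trp63 and Trp73 were lower in both libraries, where 37.0% of 10793 genes were lower and 19.0% higher in GOF, and 38.8% of 10179 genes lower and 19.6% higher in control.

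Across the 43 cluster-by-library sums of at least 50 cells, levels of Trp53, Trp63 and Trp73 were positively correlated. As a description over sums that share 2 libraries, Pearson's r of log2(CPM + 1) was 0.78 between Trp53 and Trp73, 0.73 between Trp53 and Trp63 and 0.69 between Trp63 and Trp73. Mdm2 had r of -0.13 with Trp53 and 0.27 with Mdm4. How many of all genes compared had an r as high with each member was not counted. Of 5968 other genes at 20 CPM or more, the 5 most like Trp53 were Ube2e3, Fam92a, Tcof1, Mthfd1 and Ctps (r of 0.92 for the first and 0.90 for the last). Mthfd1 and Ctps encode enzymes of folate and CTP synthesis, and Tcof1 a nucleolar factor of ribosomal RNA synthesis. Those most like Trp63 were Igf1r, Plxnb1, Kif13a, Med13l and Ampd3 (r of 0.89 to 0.88), Igf1r being the receptor of insulin-like growth factor. Those most like Trp73 were Agrn, Ppic, Serpinh1, Slc12a4 and Megf6 (0.92 to 0.87), with Agrn a basement membrane proteoglycan and Serpinh1 a collagen chaperone. Mdm2 and Mdm4 had weaker partners, Gpr107, Nras, Mindy3, Tnks1bp1 and Fkbp15 for Mdm2 (0.75 to 0.73) and Stk38, Tmem245, Mkln1, Copb2 and Usf3 for Mdm4 (0.80 to 0.77).

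Of 28 p53 target genes listed for these samples, 27 had at least 50 pooled UMIs over all keratinocytes and none differed by 1.5-fold or more between the libraries. Their median log2 ratio was 0.13, against 0.08 for all genes. Plk3, a stress kinase, stood at 4.23 CPM in GOF and 3.10 CPM in control, a ratio of 1.37 (1.18 to 1.59). Pmaip1, which encodes the death factor Noxa, stood at 3.73 and 2.81 CPM (1.33, 1.14 to 1.56), and Rrm2b, a ribonucleotide reductase subunit, at 21.2 and 16.4 CPM (1.29, 1.21 to 1.38). The lowest ratios belonged to Tnfrsf10b, a death receptor (0.868, 0.746 to 1.01), Ak1, an adenylate kinase (0.871), Ddit4, an inhibitor of mTOR signalling (0.878), and Gadd45a, a growth-arrest gene (0.904). The ratio of Ccng1, which encodes cyclin G1, was 1.22 (1.15 to 1.29) and that of Perp, a desmosomal gene held by both the p53 and the p63 list, 0.941 (0.935 to 0.946).

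Cdkn1a followed differentiation and was higher in the GOF library. Suprabasal cells had 545 CPM in GOF and 355 CPM in control, against 51.1 and 29.1 CPM in basal cells, so the suprabasal level was 10.7-fold (9.90 to 11.5) and 12.2-fold (10.8 to 13.8) the basal one. Sebaceous cells had 329 CPM in GOF and 273 CPM in control, and hedgehog-high cells 43.7 and 34.6 CPM. The classes with most Cdkn1a mRNA were those with least Trp53 mRNA. Between the libraries the ratio was 1.33 over all keratinocytes (1.30 to 1.37), 1.75 in basal cells (1.54 to 1.996), 1.62 in cluster 2 alone (1.25 to 2.11), 1.53 in suprabasal cells (1.44 to 1.63) and 1.26 in hedgehog-high cells (1.12 to 1.43). Cdkn1a was higher in GOF in all 18 clusters, with an interval above 1 in 15. In basal cells it was 1 of 2 targets of 26 past 1.5-fold upward, the other being Pmaip1 at 1.99 (1.25 to 3.28), where 6.81% of all genes were higher by that much. In hedgehog-high cells Plk3 and the stress gene Sesn2 were the 2 of 26 higher by 1.5-fold or more, where 5.28% of all genes were.

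Between classes, 14 of 26 p53 targets in GOF and 13 of 26 in control were higher by 1.5-fold or more in hedgehog-high than in basal cells, against the 28.4% and 29.1% of all genes given above. Their median log2 ratio was 0.63 in GOF and 0.59 in control, against 0.28 and 0.32 for all genes. Bbc3, which encodes the death factor Puma, had 2.71-fold the basal level in GOF and 2.95-fold in control, Trp53inp1 3.52-fold and 2.12-fold, and Apaf1, the apoptosome scaffold, 2.11-fold and 2.16-fold. Cdkn1a (0.855-fold in GOF and 1.19-fold in control) and Perp (0.921-fold and 1.07-fold) lay near their basal levels. In suprabasal over basal cells the list split, with 4 higher and 10 lower of 26 in GOF, where 11.4% of all genes were higher and 25.7% lower, and 6 higher and 8 lower of 24 in control, where 15.9% were higher and 18.4% lower. Perp (3.08-fold and 2.79-fold) and Zmat3 (2.62-fold and 2.61-fold) stood high there with Cdkn1a, and Siva1 (0.252-fold and 0.240-fold) and Fas (0.365-fold and 0.431-fold) low.

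**Figure D4:**
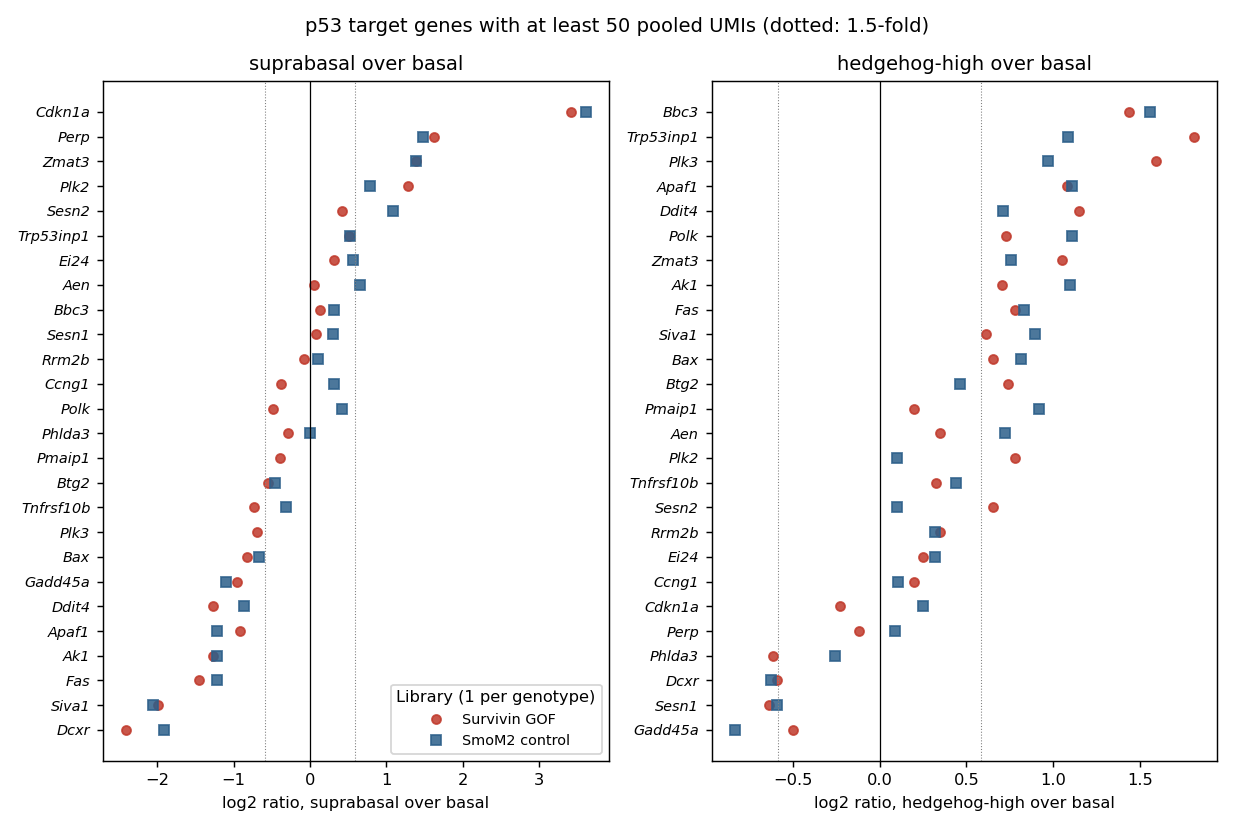
Log2 ratio of CPM of p53 target genes with at least 50 pooled UMIs (rows) in suprabasal over basal cells (left) and hedgehog-high over basal cells (right), with circles for the Survivin GOF library, squares for the SmoM2 control library and dotted lines at 1.5-fold. Cdkn1a leads in suprabasal cells (3.41 and 3.61) and lies near 0 in hedgehog-high cells.

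Of 19 p63 targets of the epidermis, 1 was higher and 2 were lower by 1.5-fold or more over all keratinocytes, where 6.79% of all genes were higher and 5.41% lower. Fras1, an extracellular matrix gene of the basement membrane zone, stood at 20.1 CPM in GOF and 39.4 CPM in control (ratio 0.509, 0.481 to 0.537). Its ratio was 0.420 in basal, 0.358 in suprabasal and 0.685 in hedgehog-high cells, with intervals below 1. Satb1, a chromatin organiser, stood at 9.75 and 15.97 CPM (0.610, 0.563 to 0.662). Dlx3, a homeobox gene of epidermal differentiation, stood at 13.4 CPM in GOF and 8.22 CPM in control over all keratinocytes, and at 18.0 and 4.18 CPM in hedgehog-high cells, a ratio of 4.31 (3.21 to 5.87). Itgb4 (0.797), Fgfr2 (0.896), Hells (1.42), Krt14 (1.19) and Krt5 (1.16) were the next in size. In suprabasal cells 7 of 19 were lower and none higher by 1.5-fold or more, where 6.16% of all genes were lower and 3.09% higher. These 7 were Fras1, Itga3, Itgb4, Jag2, Satb1, Hells and Fgfr2, and for Hells the interval of the ratio included 1 (0.385 to 1.11). Each of the 7 was also lower in suprabasal than in basal cells by 1.5-fold or more in both libraries, except Satb1, which was so in GOF (0.653-fold) and not in control (0.778-fold). The Ptch1, YFP and Trp63 levels of that class were also higher in control, and the part of RNA from other cells was not tested.

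Of 26 regulators of the p53 family, 2 were higher and none lower by 1.5-fold or more in GOF, where 6.79% of all genes were higher and 5.41% lower. Their median log2 ratio was 0.18, against 0.08 for all genes. Cdkn2a, whose ARF product restrains Mdm2 and whose other product is the cell-cycle inhibitor p16, stood at 6.97 CPM in GOF and 3.11 CPM in control (ratio 2.24, 1.957 to 2.57). It was concentrated in hedgehog-high cells, with 30.4 CPM in GOF (445 UMIs) and 9.13 CPM in control (120 UMIs), a ratio of 3.33 (2.71 to 4.10). Basal cells held 11 and 5 Cdkn2a UMIs, suprabasal cells 3 and 5, and sebaceous cells 2 and 1. In male-called keratinocytes the ratio of Cdkn2a was 3.57 (3.01 to 4.24). Ep300, a histone acetyltransferase that acts with p53, stood at 51.9 and 34.6 CPM (1.501, 1.44 to 1.57), Prkdc, a DNA-damage kinase, at 19.8 and 14.5 CPM (1.37), and Atm at 21.5 and 16.1 CPM (1.33). Ppm1d, a phosphatase that switches the p53 response off, was at 17.5 CPM in GOF and 13.7 CPM in control (1.28, 1.19 to 1.38). Usp7, which removes ubiquitin from Mdm2 and p53, was at 80.5 and 81.1 CPM (0.993, 0.963 to 1.02). The others with the lowest ratios were Kat5 (0.892), Rpl11 (0.933) and Yap1 (0.943).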

How the data were processed

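The deposited values are whole-number UMI counts per gene and barcode, which the authors made with Cell Ranger (version 6.1.1, per the file headers) and did not normalize. Build mm10, Seurat 4.2.0 and R 4.3.0 are named in the submitters' processing notes. The GOF matrix held 11438 barcodes with 126329382 UMIs and the control matrix 24844 barcodes with 146216083 UMIs, beside 8046 cells that the labels give for the control genotype, and 6922 and 10993 barcodes passed the filter. The automatic threshold of scrublet marked 0 barcodes in either library, so scores in the top 6% were removed (428 and 699 barcodes). Clustering used scanpy 1.11.5 under Python 3.11.15 (igraph 0.11.9, scikit-learn 1.9.0) with 2000 variable genes, 30 principal components, 15 neighbours and Leiden resolution 1, without integration and without the 5 genes, Birc5, mitochondrial, ribosomal protein and sex genes. Keratinocytes exclude clusters 17 (melanocyte-like) and 24 (immune-like). Cluster 25 was kept among them, with Krt14 at 14175 CPM in control, though 0 of 17 basal and 0 of 14 suprabasal markers counted as raised over the other cells. Of the fibroblast markers 3 of 4 did, so its identity is unsure. It held 19871255 of the 99104341 control UMIs in the values over all keratinocytes. Classes were named from marker lists, so a difference from the study's own classes may come from these names. Clusters 20 and 22 carried sebaceous markers but were kept out of that class: they held 131 and 1 GOF cells and 52 and 219 control cells.

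CPM carry exact Poisson intervals, ratios exact conditional binomial intervals and shares exact Clopper-Pearson intervals (scipy 1.17.1, numpy 2.4.6). The interval of a ratio was tested on simulated counts with Poisson error alone, which is the error it assumes. Extra spread between cells or between mice was not simulated. Thinning drew UMIs at random without replacement. Genes named beside the members are, from each list, up to 4 in each direction with the largest ratio over all keratinocytes, 6 with a textbook link to a member, and the 5 most alike; those past 1.5-fold within a class were added after their values were seen. The members and lists were chosen with earlier results of these data known.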

Additional observations from a re-analysis of the deposited data

Results flagged for a closer look

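The ratio of Mdm2 between the libraries lay on opposite sides of 1 in different classes. The log2 ratio, GOF over control, was -0.283 in basal cells and -0.656 in suprabasal cells, against 0.239 in hedgehog-high cells, and each of the 3 counting intervals excluded 0. The median log2 ratio of all genes was 0.13, -0.02 and 0.08 in these classes. In hedgehog-high cells that median lay above the lower limit of the Mdm2 interval (0.03). In basal cluster 2 alone the Mdm2 ratio was 0.870, with an interval that included 1 (0.640 to 1.196). With 1 library per genotype the difference between the classes was not tested.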

How the results depend on the processing

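Values here are log2 ratios, GOF over control, over all keratinocytes unless stated. A value counts as moved when it left the counting interval of the reported one. At most 5% mitochondrial UMIs gave 0.29 for Mdm4 and -0.032 for Trp63. Median-of-ratios scaling gave -0.093 for Mdm2, 0.097 for Mdm4, 0.040 for Trp53 and -0.17 for Trp63. A total without mitochondrial, ribosomal protein and Birc5 UMIs gave -0.12 for Trp63. The mean of cell CPM gave 0.057 for Mdm4 and -0.13 for Trp63. Thinned cells gave -0.10 for Mdm2, 0.070 for Mdm4, -0.15 for Trp63, -0.37 for Trp73 and 0.042 for the median of the p53 targets. Without cells with a core mitotic UMI, Mdm4 turned to -0.026, and Mdm2 was -0.12, Trp53 0.19, Trp63 -0.13 and Trp73 -0.075. Male-called cells gave 0.085 for Mdm4, -0.24 for Trp63 and -0.52 for Trp73. Without clusters of 1 library, Mdm4 was 0.033 and Trp63 -0.21. In alternatives chosen after seeing the data, leaving out the control-only clusters gave -0.10 for Mdm2, 0.049 for Mdm4 and -0.18 for Trp63, and equal cluster weights gave 0.056 for Mdm4, -0.21 for Trp63 and -0.57 for Trp73. Trp63 and Trp73 stayed negative and Trp53 positive under each of these settings. The cause of these moves was not tested.

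The difference in the share of cells with a UMI, GOF minus control, was -1.003 points for Trp63, -0.76 for Trp73 and 2.33 for Mdm4 when thinned to 5000 UMIs. Unthinned shares, which follow depth, turned to 5.78 points for Trp63 and 4.50 for Trp73, and gave 16.2 for Trp53, 8.41 for Mdm2 and 14.2 for Mdm4. Of the single values within and between classes, 428 kept to their interval, 69 left it with the same sign or no call and 6 turned. Mdm4 in hedgehog-high over basal cells was -0.018 in GOF and -0.067 in control, and Trp63 -0.11 in control, under median-of-ratios scaling. Mdm4 in control suprabasal over basal cells was -0.063 at the 5% mitochondrial limit. Trp63 in sebaceous cells was 0.46 at Leiden resolution 0.5 and with clusters 20 and 21 joined, which adds 131 GOF and 52 control cells of cluster 20. No paired analysis was possible because each genotype has 1 library. Leaving out a replicate was not possible for the same reason. At these depths intervals are widest for Trp73 in suprabasal and sebaceous cells.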
